A study of Drosophila melanogaster with 7 samples.

Results

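The features described here are the annotated insertions of copia, a retrotransposon of the Drosophila genome. Every feature whose gene name in the deposited transcript-to-gene table begins with copia followed by a brace was taken, which gave 39 of 24204 features. The annotation holds 5868 transposon insertions in 134 families. The family was singled out because earlier results of these data placed 2 of its insertions near the top of the comparison of 10% with 20% oxygen, so the values of that comparison are given below as a description, with no test.

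copia is a long terminal repeat (LTR) retrotransposon. Its flanking repeats carry the promoter, and its full-length RNA serves both as the messenger for the capsid, protease, integrase and reverse transcriptase proteins and as the template that is copied into DNA and inserted at a further site. The family was named for the abundance of its RNA in fly cells. In the fly, transposon RNA is held down by piRNAs, chiefly in the gonad, by small interfering RNAs in body tissues, and by heterochromatin at the insertion.

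RNA came from dissected midguts, the digestive and absorptive section of the intestine. All animals were virgin females from 1 strain, sg-Gal4,UAS-GFP in the labels, so every group carried the same Gal4 driver and GFP reporter. They were kept in sealed cabinets, and RNA was taken at day 53. The groups were 10% oxygen with 3 libraries, 20% oxygen with 3, and 40% oxygen with 1. Replicates 1 and 2 at 10% and 20% belong to batch 1 in the labels, and replicate 3 of both groups and the 40% library belong to batch 2. The 40% library therefore has no replicate, and its nearest comparison is 1 library at 20% and 1 at 10% from its own batch. The labels do not say whether replicates were separate groups of animals, and every p-value below reflects the scatter among these 7 libraries, part or all of which could be technical.

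The batches stood apart before any transposon was examined. Library totals were 19.22 to 22.22 M counts (M for mega), but mitochondrial transcripts took 4.10 to 4.68% of them in batch 1 and 61.0 to 71.0% in batch 2, which left 5.73 to 7.49 M other counts in batch 2. Levels are given as CPM, counts per M counts with TMM scaling, a factor that sets most features level between libraries. The 9 enterocyte markers summed to 18135 to 57810 CPM, so the defining markers of the labelled tissue were present. The 11 muscle markers summed to 728 to 1006 CPM in batch 1 and to 10117 to 11856 CPM in batch 2, and all 11 were higher in batch 2. Markers of the ovary germline, of which 9 of 10 were found, summed to 7.27 to 119 CPM in batch 1 and 10.8 to 19.4 CPM in batch 2. Of these, grk held 7.83 to 12.7 CPM in batch 2 against 0.424 to 1.29 CPM in batch 1. Of the 7 tested between batches, grk alone had a fold change above 0 (48.5% of all features). In bulk tissue, fewer cells of a type and less RNA per cell cannot be told apart.

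Of the 39 insertions, 30 are at least 5000 bases long, about the length of an intact element. These 30 lie on all the large arms, with 11 on 2L, 5 on 2R, 6 on 3L, 5 on 3R and 3 on X. The other 9 are shorter. Among these, 7 fragments of 25 to 1238 bases had 0 counts in every library, apart from copia{}2248, which had 1 count in 1 library. copia{}988 (4424 bases) and copia{}122 (4529 bases) had counts throughout. The 32 insertions with counts were the ones that passed the filter on low counts in every comparison.

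Reads of near-identical copies can be divided between insertions by the quantification, and the insertions of this strain were not mapped. A value for an insertion is thus the number of reads assigned to that reference copy, while the family sum does not depend on how reads were divided among copies.

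copia was the most abundant transposon family in these midguts. It received 49457, 45378 and 33268 counts at 10% oxygen, 32226, 36255 and 22104 at 20%, and 37989 at 40%, or 0.114 to 0.226% of all counts. Those counts were 62.8, 61.3 and 78.9% of all transposon counts at 10%, 53.2, 55.1 and 71.9% at 20%, and 79.6% at 40%. By TPM, which divides by transcript length, the family summed to 172 to 331 TPM and ranked between 213 and 447 among all features.

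On the CPM scale the family's level was higher at 10% than at 20% oxygen within both batches, and highest at 40%. In batch 1 copia stood at 1419 and 1284 CPM at 10% oxygen and at 987 and 994 CPM at 20%. In batch 2 it stood at 3008 CPM at 10%, 1898 CPM at 20% and 4247 CPM at 40%. Within each batch the 10% libraries lay above the 20% libraries without overlap, and the 40% library lay above both of its batch mates. As a share of all counts the 40% library, at 0.192%, was below the batch 1 libraries at 10%, at 0.226 and 0.207%. It was still above its batch mates on that scale, at 0.173% for 10% oxygen and 0.114% for 20%.

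**Figure D1:**
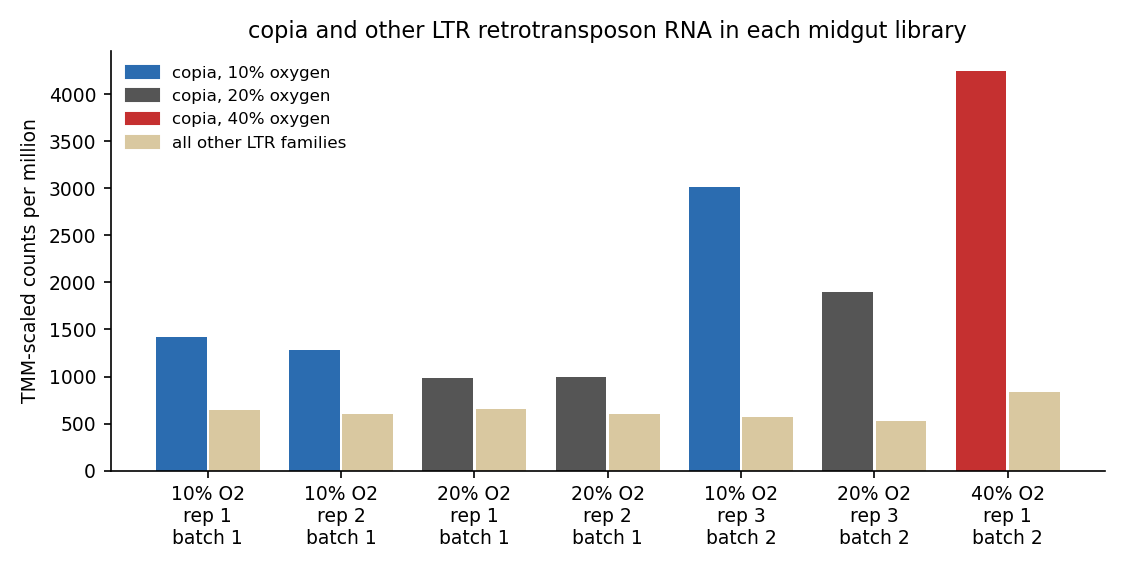
Level of copia, all 39 insertions summed, in each library, in TMM-scaled CPM. Its bars are blue for 10%, grey for 20% and red for 40% oxygen. Sand bars give the sum of the other LTR families, taken by a list of family names. The copia bars at 10% stand above those at 20% in both batches, and the 40% library is highest at 4247, while the other families sum to between 527 and 834 in every library.

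The ratio of 10% to 20% was 1.36 in batch 1 and 1.59 in batch 2. The edgeR fit with batch as a term gave a log2 fold change of 0.52 (SE 0.09, 3 libraries against 3). Counted as a share of all non-mitochondrial counts, with no TMM scaling, copia took 0.236 and 0.218% at 10% against 0.156 and 0.171% at 20% in batch 1, and 0.444 against 0.316% in batch 2. In this comparison 5 of 5 fat body markers tested had a fold change above 0 (52.1% of all features). Of ovary germline markers 0 of 7 did, of follicle cell markers 0 of 5 and of Malpighian tubule markers 0 of 5. Markers in the other lists went both ways. The part of these markers in the copia level was not tested.

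At 40% oxygen copia was 2.24 times its level in the 20% library of the same batch and 1.41 times that of the 10% library. Against 20% the log2 fold change was 1.09 (SE 0.14, 95% interval 0.74 to 1.43, edgeR adjusted p = 0.0370). Of 9733 features tested with families collapsed, 1.45% were called higher in this comparison. Leaving out any 1 of the 6 libraries at 10% or 20% oxygen kept the fold change between 0.95 and 1.16 and moved the adjusted p to between 0.0544 and 0.103, above the 0.05 threshold. Against 10% the log2 fold change was 0.57 (SE 0.13, 95% interval 0.22 to 0.91) with an edgeR adjusted p of 0.109, which did not pass. Both comparisons share the 40% library, and its spread is assumed to be that of the others. The comparison of 40% with 20% also shares its 20% libraries with the comparison that singled the family out, so its test is not independent of that choice. In the 40% library, the summed enterocyte markers were lowest at 18135 CPM against 28495 and 31060 CPM in its batch mates, and the mitochondrial share was highest at 71.0% against 61.0 and 64.0%. Of the 9 enterocyte markers, 2 went the other way: nub stood at 66.6 CPM at 40% against 48.2 and 37.6 CPM, and Mal-A1 at 1108 CPM against 812 and 775 CPM. The fragment length was shortest at 40%, at 229 bases against 244 at 10% and 254 at 20% in batch 2, and 272 to 280 in batch 1. The part of any of these in the copia level was not tested.

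The family also differed between batches. Batch 2 averaged 2453 CPM at 10% and 20% oxygen against 1171 CPM in batch 1, which the fit put at 1.06 on the log2 scale (SE 0.09, edgeR adjusted p = 0.0005). Of 9100 features, 29.0% were called higher in batch 2. The direction depended on the scale. As a share of all counts, mitochondrial ones included, copia was lower in batch 2, at 0.173% against 0.207 and 0.226% for 10% oxygen and 0.114% against 0.150 and 0.163% for 20%. On log2(TPM + 1), where the median of all features fell by 1.12, copia's fold change was -0.35 (adjusted p = 0.0120, limma). Relative to the median of all features on each scale copia was higher in batch 2, by 1.09 on the CPM scale and by 0.76 on the TPM scale. The muscle markers given above moved with batch, as did tracheal markers, of which 5 of 6 were found, at 11.5 to 15.5 CPM in batch 1 and 74.6 to 86.0 CPM in batch 2. Of the haemocyte and the fat body markers 4 of 5 tested were called higher in each list, and of the enterocyte markers 7 of 9 were called lower in batch 2. With each insertion kept as a feature, 28.7% of all features were called higher and 26.9% lower. The part of these markers in the copia level was not tested.

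Counts were concentrated in a few insertions. The 6 most abundant held 66.5 to 73.3% of the family's counts in each library, and the 10 most abundant held 78.7 to 86.7%. The leading insertion, copia{}1467 (3R, 31413145 to 31418286, minus strand), lies in an intron of Gprk2, a kinase of G protein-coupled receptors, on the opposite strand. It stood at 284, 237 and 696 CPM in the 10% libraries, 186, 188 and 539 CPM in the 20% libraries and 1054 CPM at 40%. It was higher at 10% than at 20% in each batch and highest in the 40% library, as the family was.

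Next came copia{}1349 (3R, 12920208 to 12925352, minus strand), in an intron of beat-Vb, a gene of the beaten path family of cell-surface proteins, again on the opposite strand. Its levels were 152, 148 and 263 CPM at 10%, 114, 114 and 244 CPM at 20%, and 481 CPM at 40%. beat-Vb itself was at 0 counts in all 7 libraries. The next pair were intergenic. copia{}387 (2L, 16141218 to 16146366, plus strand) stood at 122, 106 and 311 CPM at 10%, 90.8, 81.5 and 254 CPM at 20% and 418 CPM at 40%. copia{}988 (3L, 12957842 to 12962265, minus strand) stood at 113, 93.5 and 318 CPM at 10%, 69.2, 79.5 and 182 CPM at 20% and 462 CPM at 40%. All 3 followed the order of the family in batch 2, with 20% lowest and 40% highest.

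The last pair of the 6 departed from the family in different ways, copia{}372 in its batch difference and copia{}631 in its oxygen order. copia{}372 (2L, 14803935 to 14809079, minus strand, intergenic) was lower in batch 2 than in batch 1 at matched oxygen, though the difference did not pass (log2 -0.39, SE 0.17, edgeR adjusted p = 0.102). It stood at 158, 176 and 153 CPM at 10%, 138, 114 and 77.5 CPM at 20% and 186 CPM at 40%. copia{}631 (2R, 5217753 to 5222897, plus strand) lies in an intron of Nipped-A, a large cofactor of histone acetyltransferase complexes, on the opposite strand. It stood at 114.9, 106 and 262 CPM at 10%, 82.8, 95.8 and 92.6 CPM at 20% and 245 CPM at 40%, so the 40% library was below the 10% library of its batch.

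**Figure D2:**
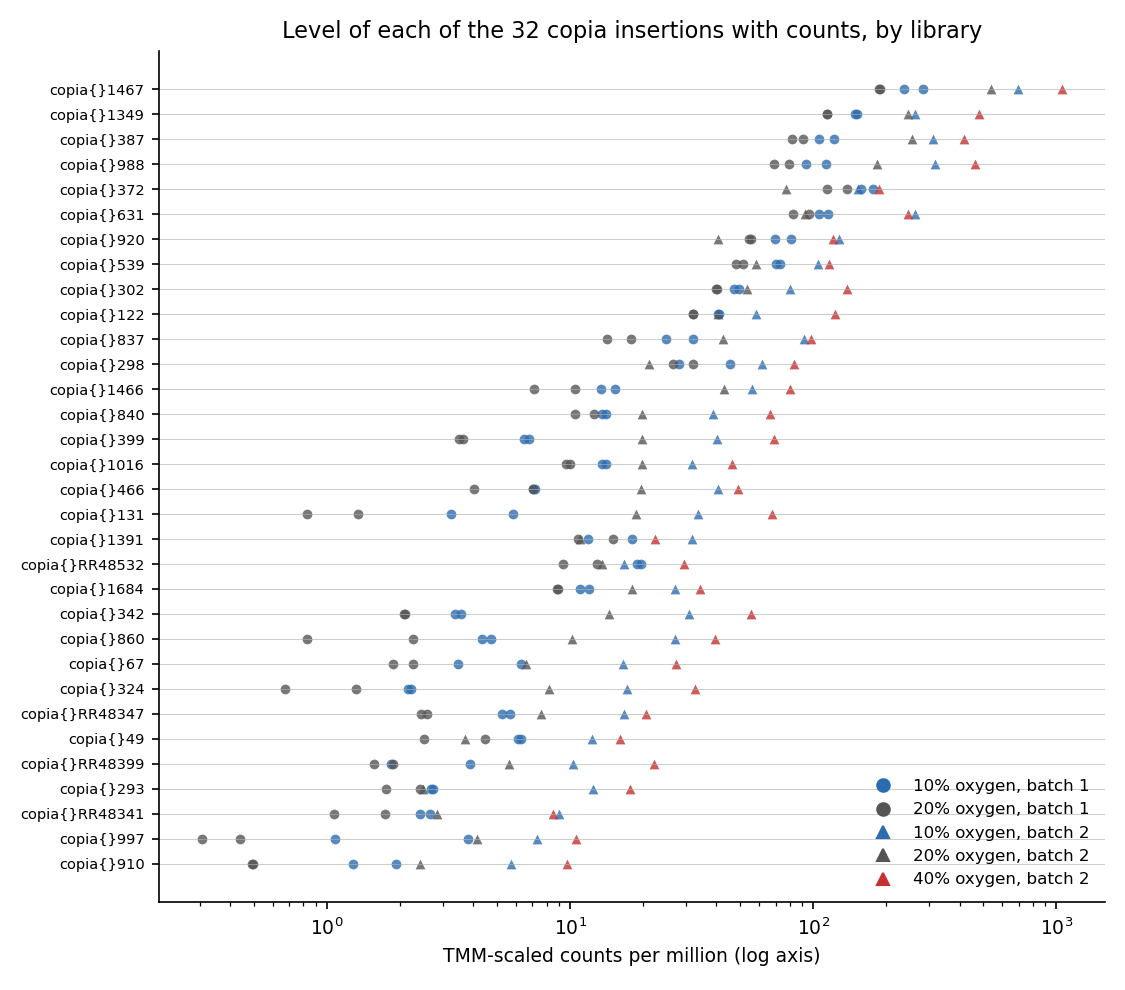
Level of each of the 32 copia insertions with counts in each of the 7 libraries, in TMM-scaled CPM on a log axis (blue 10%, grey 20%, red 40% oxygen; circles batch 1, triangles batch 2), most abundant at the top. Levels span from 1054 for copia{}1467 at 40% to 0.306 for copia{}997 at 20%, and the red triangle of the 40% library lies farthest right for 28 of the 32 within batch 2.

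At 10% oxygen all 32 insertions with counts had a fold change above 0, against 52.1% of the 9278 features tested, and 29 had every 10% library above the 20% libraries of its batch, against 12.0% of all features. Since this comparison singled the family out, nothing is read from these counts. The exceptions were copia{}1391, copia{}298 and copia{}RR48399. The median log2 fold change was 0.71, beside 0.01 for all features, and ranged from 0.30 for copia{}1349 to 2.02 for copia{}997. No feature of the whole table was called by edgeR in this comparison (0.0%), with 584 at an unadjusted p below 0.05, while DESeq2 called 98 features higher and 26 lower.

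Counts were low for the insertions with the largest fitted values at 10% oxygen. copia{}997 (3L, 14468500 to 14473647), in an intron of the PDZ-protein gene bbg, had 133, 38 and 81 counts at 10% and 10, 16 and 48 at 20%. copia{}131 (X, 14818820 to 14823965), in an intron of the adenylyl cyclase gene rut, had 203, 114 and 370 counts at 10% and 27, 49 and 217 at 20%. The 10 most abundant had a median of 0.51 at 10% oxygen and the other 22 a median of 0.93.

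At 40% oxygen, 11 of the 32 insertions were called higher than at 20% and 0 lower, beside 1.41% of all 10068 features called higher and 1.76% called lower. The 20% libraries are those of the comparison that singled the family out, so these calls and directions are not independent of that choice. Copies can also share reads, so here and in the other comparisons the 32 insertions are not separate observations. All 32 had a fold change above 0 (47.3% of all features), with a median of 1.26 beside -0.03 for all features. In the 40% library 28 lay above both batch mates, against 37.1% of all features, and 26 stood at over 2 times the 20% library of batch 2, against 10.2%. The 4 that did not exceed both mates were copia{}1391, copia{}631, copia{}920 and copia{}RR48341, and in each the 10% library was the higher. Without 1 of the 6 libraries at 10% or 20% oxygen, 0 to 5 of the 32 were called, the 5 without replicate 3 at 10%, as the calls over all features fell from 142 higher and 177 lower to at most 41 and 28.

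Among the 11, the smallest adjusted p belonged to copia{}399 (2L, 17819978 to 17825122, minus strand), in an intron of CadN2, a neural cadherin, on the same strand. It stood at 69.2 CPM at 40% oxygen against 19.8 CPM at 20% and 40.1 CPM at 10% in batch 2, and at 3.49 to 6.79 CPM in batch 1. Against 20% this was a log2 increase of 1.75 (SE 0.10, edgeR adjusted p = 0.0157). copia{}342 (2L, 11563692 to 11568837, intergenic) rose to 55.7 CPM against 14.5 and 30.8 CPM in its batch mates, or by 1.80 against 20% on the log2 scale (SE 0.15, edgeR adjusted p = 0.0331).

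copia{}122 (X, 14030806 to 14035334, intergenic) stood at 123 CPM at 40% oxygen, against 40.6 CPM at 20% and 58.3 CPM at 10% in batch 2 and 31.98 to 40.8 CPM in batch 1. Its log2 fold change was 1.52 (SE 0.11, edgeR adjusted p = 0.0331). Between batches its log2 difference was 0.44 (SE 0.07). The largest fold change among the 11 was that of copia{}910 (3L, 2108306 to 2113451), in an intron of the titin-like muscle gene sls on the same strand, at 2.15 (SE 0.34, edgeR adjusted p = 0.0483), from 28 to 87 counts.

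The other 7 called insertions were copia{}1467, copia{}1349, copia{}988, copia{}302, copia{}1016, copia{}1684 and copia{}RR48347, with log2 fold changes from 0.84 to 1.42. copia{}302 (2L, 3649843 to 3654987) lies in an intron of the protein kinase gene for, on the opposite strand, and stood at 138 CPM at 40% against 53.5 CPM at 20% and 80.3 CPM at 10% in batch 2. copia{}RR48347 (3R, 4105093 to 4110238, intergenic) stood at 20.6 CPM at 40% against 7.56 CPM at 20% and 16.7 CPM at 10%. The remaining 21 tested insertions had log2 fold changes of 0.47 to 2.19 with adjusted p of 0.0546 or more.

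Against 10% oxygen, 2 insertions were called higher at 40% and 0 lower, beside 0.447% of all features called higher and 0.715% called lower. copia{}122 was higher by 1.12 on the log2 scale (SE 0.11, edgeR adjusted p = 0.0432) and copia{}399 by 0.81 (SE 0.10, edgeR adjusted p = 0.0450). The fold change was above 0 for 30 of 32 (48.7% of all features), with a median of 0.59. Without any 1 of the 10% or 20% libraries, 0 insertions were called.

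**Figure D3:**
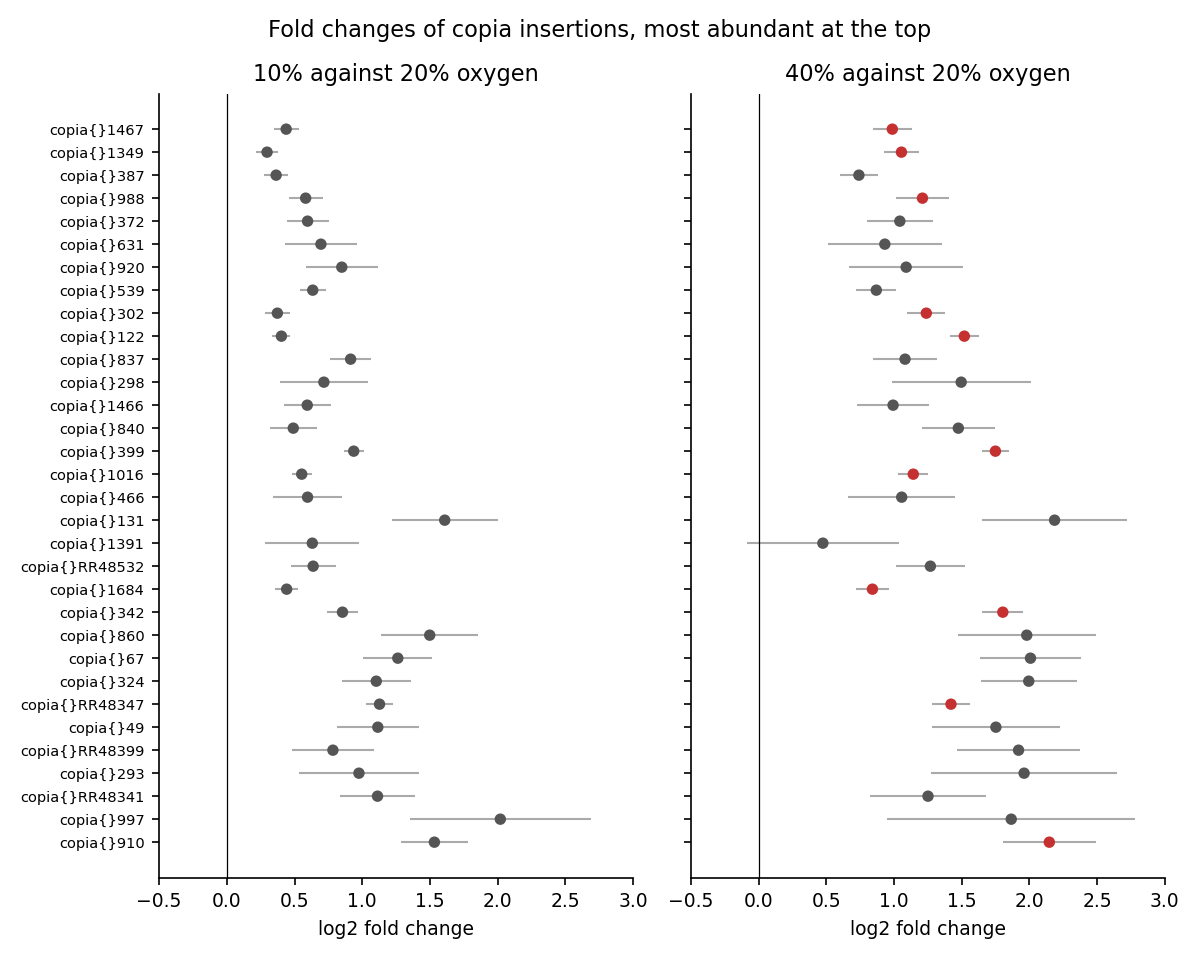
Log2 fold change of each of the 32 insertions at 10% (left) and 40% oxygen (right) against 20%, with the standard error as a bar and the most abundant insertion at the top; red points were called at an adjusted p below 0.05, and no test was applied on the left. All points lie right of 0 on both sides, and bars lengthen for several scarce insertions such as copia{}997.

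Insertions differed widely in how far they moved between batches. In batch 2, 24 of 32 were called higher and 0 lower, beside 28.7% of all features called higher and 26.9% called lower, with log2 differences from -0.39 for copia{}372 to 3.51 for copia{}131. The median was 1.48 beside -0.03 for all features, and 22 had both batch 2 libraries at 10% and 20% above all 4 of batch 1, against 34.2% of all features. The 8 that were not called were copia{}1391, copia{}293, copia{}298, copia{}372, copia{}49, copia{}631, copia{}920 and copia{}RR48532.

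Counts of the family were divided differently among its copies in the 2 batches. Of the 32 insertions, 11 took a larger share of copia counts in every batch 2 library than in any of batch 1, 6 took a smaller share, and 15 overlapped. copia{}1467 took 18.5 to 20.0% in batch 1 and 23.1 to 28.4% in batch 2. copia{}372 took 11.1 to 13.9% in batch 1 and 4.09 to 5.07% in batch 2, the largest loss among them. copia{}399 took 0.353 to 0.530% and then 1.04 to 1.63%. These shares do not depend on the scaling between libraries. No such count was made for other families, so the counts of 11 and 6 have no background beside them. Fragment length also differed between the batches, and its part in how reads were divided among copies was not tested. Within batch 2 the 40% library's share lay between those of the 10% and 20% libraries for copia{}1467, at 24.8%, and for copia{}372, at 4.37%.

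**Figure D4:**
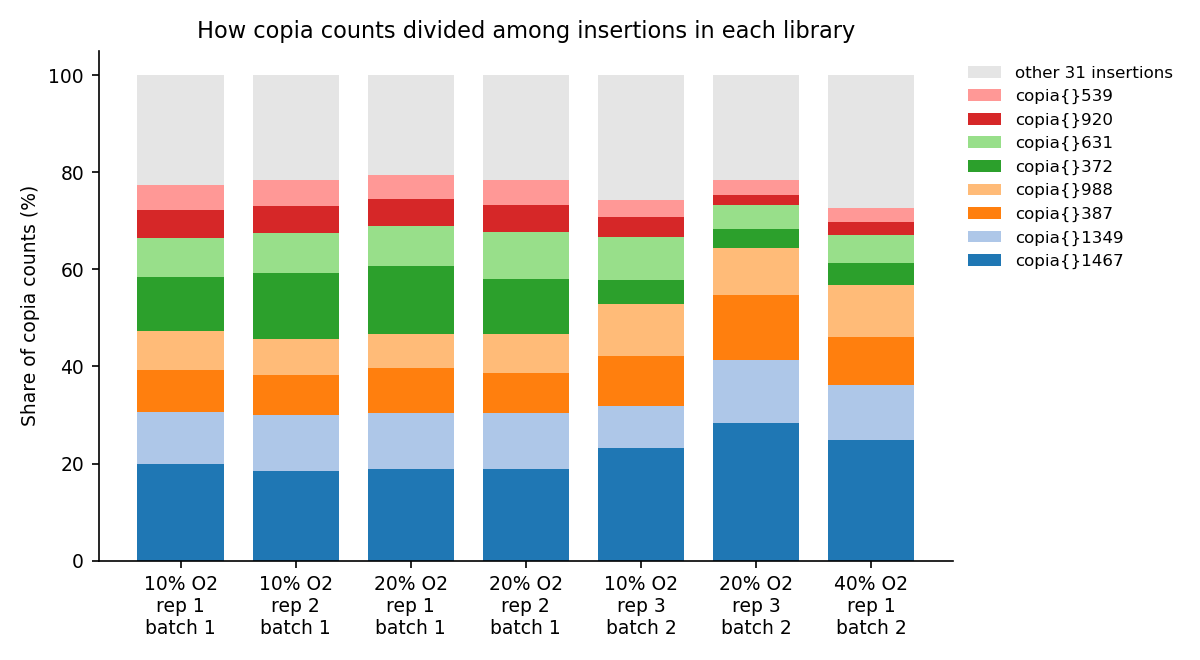
Share of copia counts (%) assigned to each of the 8 most abundant insertions, with the other 31 in light grey, as stacked bars per library grouped by batch. copia{}1467, at the base, widens from 18.5 to 20.0% in batch 1 to 23.1 to 28.4% in batch 2, and copia{}372 narrows from 11.1 to 13.9% to 4.09 to 5.07%.

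By position, 22 insertions are intergenic (16 of them tested), 8 lie in an intron on the same strand as the gene, 8 in an intron on the opposite strand, and copia{}6185 overlaps an exon. The median log2 fold changes at 40% against 20% oxygen were 1.26 for intergenic, 1.61 for same-strand and 1.19 for opposite-strand insertions, and at 10% they were 0.71, 0.89 and 0.62. Their ranges overlapped in both comparisons. For batch 2 against batch 1 the medians were 1.48, 2.09 and 1.04. The library kit marks strand per the labels, but the sources used here do not give whether the quantification used it, and intronic reads of the host's precursor RNA cannot be told apart from RNA started in the insertion.

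No host gene of an intronic insertion was called by oxygen. Of 17 host genes 15 were tested, and 0 were called at 40% against 20% by edgeR (adjusted p from 0.0896 to 0.999) or by DESeq2, with 1 at an unadjusted p below 0.05 and a median log2 fold change of 0.22. CadN2 had a log2 fold change of 0.08 where copia{}399 had 1.75, and sls had -0.32 where copia{}910 had 2.15. CadN2 was scarce, at 1.29 to 1.90 CPM in batch 2, where the floor of 3 counts is 0.258 to 0.335 CPM. That limits the precision of its value. The difference between a gene and its insertion was not tested.

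Between batches some host genes and same-strand insertions were both higher in batch 2. Tg, which encodes transglutaminase, had a log2 difference of 2.72 beside 3.01 for copia{}324. CadN2, at only 0.153 to 0.329 CPM in batch 1, had 2.69 (SE 0.40) beside 2.55 for copia{}399. The log2 difference was 1.92 for sls beside 2.05 for copia{}910, and 1.52 for rut beside 3.51 for copia{}131. These 4 were the same-strand hosts called higher, of 7 tested. Of all 9278 features, 28.7% were called higher in batch 2 and 26.9% lower. CG34347 went the other way, at -1.76 beside 2.14 for copia{}1466. The remaining same-strand hosts were not called, mbl at -0.17 beside 1.17 for copia{}840 and Eip63E at 0.28 beside 0.22 for copia{}920. Of the 8 opposite-strand hosts tested 0 were called higher and 3 lower. sls is itself one of the 11 muscle markers.

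Other LTR families were taken by a list of family names, and families off that list were not counted among them. The 55 on the list summed to 639, 605 and 565 CPM at 10%, 652, 605 and 527 CPM at 20% and 834 CPM at 40%. Their ratio of 10% to 20% was 0.99 in batch 1 and 1.07 in batch 2, beside 1.36 and 1.59 for copia. Of 35 tested, 15 had a fold change above 0 (51.8% of all features), the median was -0.03, and 2 exceeded copia's 0.52. Those were mdg3 at 0.99 and the scarce Stalker4 at 0.65. The difference between copia and other families was not tested, since copia was chosen on this comparison.

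At 40% oxygen some other LTR families rose as well. The sum of all 55 was 1.58 times that of the 20% library of the batch, beside 2.24 times for copia, and 1.48 times that of the 10% library, beside 1.41 times for copia. Of 37 tested, 24 were above 0 (47.7% of all features) against 20% and 10 exceeded copia. Against 10% their median log2 fold change was 0.64 beside copia's 0.57, and 19 exceeded copia. Called higher against 20% were roo (log2 fold change 1.75), blood (1.03), Transpac (2.58) and springer (2.86), and accord was called lower (-1.74), with edgeR adjusted p from 0.0356 to 0.0481. Of all features, 1.45% were called higher and 1.75% lower. Transpac reached 56.6 CPM at 40% from 10.0 CPM at 20% and 8.23 CPM at 10% in batch 2. copia's fold change at 40% was thus not the largest among LTR families.

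The 6 other LTR families with the highest mean level were flea (183 CPM), Max (85.6 CPM), Burdock (78.8 CPM), roo (54.8 CPM), blood (50.4 CPM) and HMS-Beagle (29.7 CPM). flea, Max and Burdock had log2 fold changes of -0.51, -0.26 and -0.35 at 40% against 20%, none of which passed, and 0.04, 0.14 and -0.15 at 10%. HMS-Beagle had 1.52 at 40% (edgeR adjusted p = 0.0825) and 0.10 at 10%. roo had 0.47 at 10%, close to copia's value, and blood 0.06. Between batches roo, blood and HMS-Beagle were higher in batch 2, by 0.83, 2.19 and 2.19, while flea, Max and Burdock were lower.

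**Figure D5:**
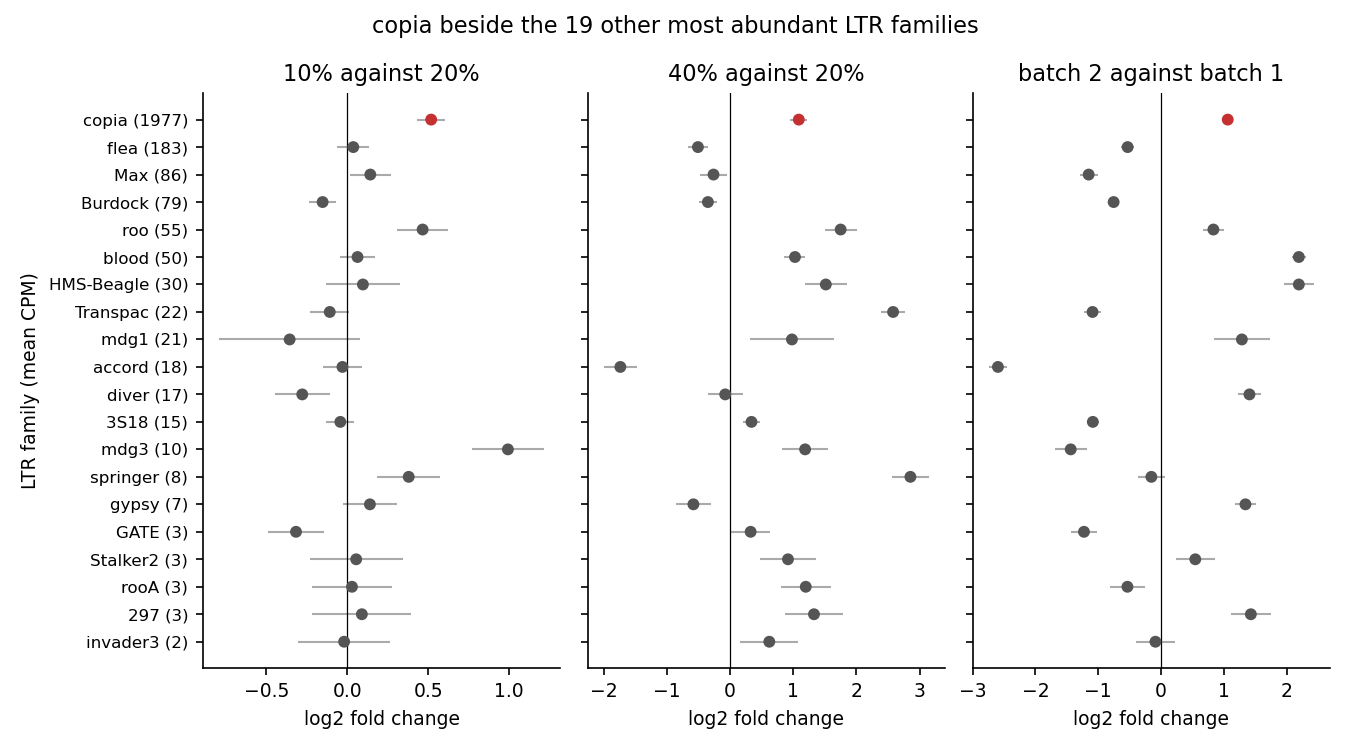
Log2 fold change with its standard error for copia (red) and the 19 other most abundant LTR families (grey), ordered by mean level in CPM given in brackets, for 10% against 20% oxygen, 40% against 20%, and batch 2 against batch 1. copia lies at 0.52, 1.09 and 1.06; at 10% most families lie near 0, and at 40% and between batches they spread to both sides.

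Genes that silence transposons were not called by edgeR in any oxygen comparison. Of 31 piRNA pathway genes 26 were tested at 10% against 20%, with 0 called by edgeR or DESeq2, 3 at an unadjusted p below 0.05, and a median log2 fold change of -0.63 beside 0.01 for all features. At 40% against 20%, 29 were tested, with 0 called by edgeR, 2 at an unadjusted p below 0.05, 1 called by DESeq2 (tud) and a median of -0.14. The mean level was under 5 CPM for 27 of the 31. piwi, which encodes the nuclear piRNA-binding protein, was at 1.72, 0 and 0.362 CPM at 10%, 2.48, 8.09 and 0.601 CPM at 20% and 0.112 CPM at 40%. Within each batch it was lower at 10% than at 20%, and the 40% library was lowest in batch 2, where the floor of 3 counts is 0.258 to 0.335 CPM. Ovary germline markers were also highest in replicate 2 at 20%, at 119 CPM, and their part in the piRNA gene levels was not tested.

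The members of the piRNA list with the smallest p at 40% were nxf2, tud, tapas and spn-E. tud, a Tudor-domain scaffold, stood at 120 CPM at 40% against 72.3 CPM at 20% and 97.5 CPM at 10% in batch 2, with a fitted log2 value of 0.56 against 20% (edgeR adjusted p = 0.167). tapas had 0.20, while nxf2 and spn-E stood under 4 CPM throughout and had -7.29 and -1.88. nxf2 was at 0 CPM at 40% against 1.03 CPM at 20% in batch 2. Of the 29 piRNA genes tested, 11 had a fold change above 0 (47.3% of all features).

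Among the small interfering RNA genes, 1 of 6 had a mean level under 5 CPM. AGO2, the slicing Argonaute of that pathway, stood at 122, 125 and 98.9 CPM at 10%, 127, 124 and 86.5 CPM at 20% and 83.5 CPM at 40%. Dcr-2, which cuts the double-stranded precursors, stood at 41.5, 48.9 and 22.4 CPM, then 36.2, 42.7 and 21.0 CPM, and 23.0 CPM at 40%. Both were lower in every batch 2 library than in any of batch 1. Of 6 genes in this list 5 were tested and 0 were called by oxygen with edgeR or DESeq2, with 0 at an unadjusted p below 0.05, and loqs stood at 0.35, r2d2 at 0.31, AGO2 at -0.14 and Dcr-2 at 0.15 on the log2 scale for 40% against 20%. In batch 2, loqs was called higher, by 2.26, and 3 genes lower, Ars2 (-1.33), Dcr-2 (-0.95) and AGO2 (-0.42). For all features the shares called were 28.7% higher and 26.9% lower.

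The 10 heterochromatin genes were all tested, and 0 were called by edgeR or DESeq2 at 10% or 40% oxygen, with 0 and 2 at an unadjusted p below 0.05 against 20%. The smallest p at 40% against 20% belonged to HP1b (0.47), Su(var)3-9, which encodes a histone H3 lysine methyltransferase (-0.92), egg (-0.47) and HP1c (-0.36), with edgeR adjusted p from 0.210 to 0.361. Between batches 2 were called higher and 4 lower, beside 28.7% and 26.9% of all features. A p that misses the threshold does not show that a gene was equal between groups.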

How the data were processed

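The authors deposited, per the file headers, one table per library with expected counts per transcript (estimated reads, which need not be whole) and TPM values, and a table pairing transcripts with genes. The submitters' processing notes name STAR 2.7.11b and Salmon 1.10.3. Their settings, and the genome build, are not stated in the sources used here. All 41539 transcript lengths equal those of the Ensembl BDGP6.54 annotation, which supplied coordinates. No sequence is shown, since no genome was used.

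Deposited expected counts were summed per feature and rounded. One table kept each insertion as a feature, and the other summed every transposon family. edgeR 4.0.16 (R 4.3.3; TMM, filterByExpr, quasi-likelihood test) was fitted across each table with batch as a term, on 6 libraries for 10% against 20% and for batch, and on all 7 for 40%. Calls used a Benjamini-Hochberg adjusted p below 0.05 over all features. Standard errors are those implied by the test statistic, and 95% intervals are not adjusted. TMM factors ran from 0.452 (40%) to 1.64 (20%, replicate 2). The detection floor of 3 counts was 0.0823 to 0.335 CPM on that scale, for counting error only. Alternatives were DESeq2 1.42.0 and its size factors, no filter, TPM with limma 3.58.1 (pseudocount 1, mean of at least 1 TPM), leaving out mitochondrial features, no batch term, a replicate block, batch 1 alone and each library left out.

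Named insertions were the 6 most abundant and those called in a comparison other than 10% against 20%. Named families were the 6 most abundant other LTR families, and named list genes were piwi, AGO2, Dcr-2 and up to 4 per list with the smallest p at 40% against 20%. Host genes, insertions at the ends of a range and families called or above copia were named after their values were seen. The members, lists and tests were chosen with earlier results of these data known. Same-numbered libraries share a batch: their deviations from the group means correlated at 0.54, 0.57 and 0.82, and batch 1 libraries of different numbers at 0.63 and 0.55.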

Additional observations from a re-analysis of the deposited data

How the results depend on the processing

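The family's log2 fold change at 10% against 20% oxygen stayed between 0.45 and 0.58 under 17 alternatives. Same-numbered libraries share a batch, and with the replicate block in place of batch it was 0.52. At 40% against 20%, the call was lost without the batch term (1.72, adjusted p = 0.578), with each library's trend of level on transcript length removed, an alternative chosen after seeing the data (0.91, adjusted p = 0.0516), and without any 1 library (0.95 to 1.16, adjusted p 0.0544 to 0.103). On TPM the value was 0.65 (adjusted p = 0.0326), where the median of all features was -0.32. At 40% against 10%, DESeq2 called the family (0.59, adjusted p = 0.000128), which edgeR did not; the other alternatives gave 0.14 to 1.16 with adjusted p from 0.103 to 0.616. The batch difference was -0.35 on TPM and otherwise 0.95 to 1.59.

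Insertions called at 40% against 20% numbered 11, but 25 with DESeq2 (445 features higher and 527 lower in all, against 142 and 177 with edgeR), 6 with the length trend removed, 0 without the batch term and 0 to 5 without 1 library. At 40% against 10% the 2 calls became 9 with DESeq2 and 0 with DESeq2's size factors, without the batch term, with the length trend removed or without any 1 library. Batch calls ranged from 22 to 27, all higher in batch 2 except that without replicate 3 at 10% there were 21 higher and 1 lower. The cause of these changes was not tested. The scarcest of the 32 insertions by mean level, copia{}910, had 16 to 87 counts in a library, which limits the precision of its values.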
